A study of Mus musculus with 8 samples.

Results

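The mitochondrial ribosomal protein genes described here are the protein-coding genes of the mouse assembly GRCm38.p6 (mm10) whose symbols are Mrpl or Mrps followed by digits. There are 78 such genes among 21887 protein-coding genes, 49 with Mrpl symbols (named for the large subunit) and 29 with Mrps symbols (named for the small subunit). Their m6A peaks were taken from the 2 peak tables of the series, in which peaks carry Ensembl identifiers that were matched to gene symbols by location and strand. Peaks could be assigned to 67 members, 9 members had none, and the peaks at 2 members (Mrps24 and Mrps34) could not be assigned to 1 gene.

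N6-methyladenosine (m6A) is a methylated adenosine found within messenger RNAs, and it was mapped by sequencing RNA fragments pulled down with an antibody against m6A (IP) beside unselected fragments (input). The 8 libraries form 4 groups of 2 replicates: IP and input from control cells, and IP and input from cells labelled as Setd2 knockdown. All libraries came from mouse embryonic stem cells carrying a doxycycline-inducible (Dox) Setd2 knockdown, grown without feeders with LIF at 1000 U/ml, PD0325901 at 1 µM to block MEK and CHIR99021 at 3 µM to block GSK3. The knockdown group received 1 µg/ml Dox for 4 days and the control group received none. Dox-treated cells that lack the knockdown construct are not among these groups, so knockdown and Dox itself cannot be told apart, and the labels do not say whether the line is 1 clone.

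Mitochondria keep their own small genome and translate its few messenger RNAs, which encode core subunits of the respiratory chain, on a dedicated ribosome. All proteins of that ribosome are encoded in the nucleus, made in the cytosol and imported, so their messenger RNAs are ordinary polyadenylated transcripts that can carry m6A. SETD2 writes trimethylation of lysine 36 on histone H3 along transcribed genes, and m6A is typically dense near stop codons and in long exons, often within the letters GGAC.

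Each peak table pools both replicates of a condition. Every value below is therefore the authors' value for a pooled condition, with no spread between replicates, no test between conditions and unknown sequencing depth. The fold of a peak is its IP over input enrichment, and its log10 FDR is the peak caller's false discovery rate on a log10 scale, where a lower value is a stronger call. Percentages carry exact (Clopper-Pearson) 95% intervals for counting error only. Peak lists do not measure transcript level, so the knockdown of Setd2 was not checked here; Setd2 itself carried 10 control and 6 Dox peaks, and the stem cell genes Pou5f1, Sox2 and Nanog carried peaks in both lists.

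Peaks were found on most members in both conditions. In the control list 57 of the 78 members had a peak (73.1%, 61.8 to 82.5), against 44.1% of all protein-coding genes. In the Dox list 65 members had one (83.3%, 73.2 to 90.8), against 45.8%. Taking the lists together, 85.9% of members had a peak, against 49.0% of all protein-coding genes. Of the 67, 55 had peaks in both lists (82.1%, 70.8 to 90.4, against 83.6% of all genes with a peak), 2 in control only (2.99%, 0.364 to 10.4, against 6.42%) and 10 in Dox only (14.9%, 7.4 to 25.7, against 9.99%). The split of members over the lists thus lay near the split of all genes with peaks. The surplus of Dox over control members was not seen among peaks of fold 4 or more, where 29 members had a control peak (as did 35.1% of all genes) and 23 a Dox peak (as did 29.6%). At that limit 11 of 34 members were in control only (against 25.1%) and 5 in Dox only (against 11.1%).

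Members of both symbol groups were represented in each class. Of the Mrpl genes, 42 of 49 had a peak, with 36 in both lists, 1 with control peaks alone and 5 with Dox peaks alone. Of the Mrps genes, 25 of 29 had one, with 19, 1 and 5 in the same classes. These are counts by symbol, and a symbol does not always give the subunit. Mrps30, for example, is counted with the Mrps genes although its protein sits in the large subunit. Grouped by descent, 38 of 44 members numbered like bacterial ribosomal proteins had a peak and 8 of these were in Dox only. Among the 34 members with higher numbers, which were mostly added to the ribosome in mitochondria, 29 had a peak and 2 were in Dox only. The intervals of the Dox-only shares, 9.55 to 37.3% and 0.846 to 22.8%, overlapped.

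**Figure D1:**
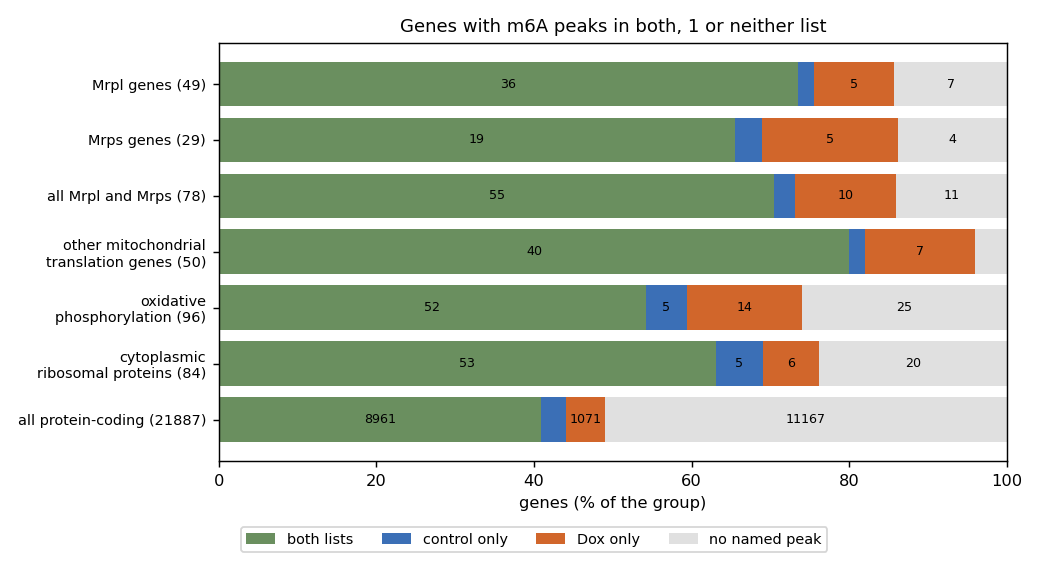
Percentage of genes in each group with m6A peaks in both lists, control only, Dox only or no peak assigned by name; group sizes are in parentheses and numbers inside bars are genes. The bar of all 78 Mrpl and Mrps genes shows 55, 2, 10 and 11 genes, the last including the 2 unresolved members, and all protein-coding genes stand in the bottom bar.

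The members without a peak in either list were Mrpl1, Mrpl21, Mrpl22, Mrpl35, Mrpl36, Mrpl39, Mrpl42, Mrps14 and Mrps36. Their gene intervals ran from 3676 to 57230 nt with a median of 9841 nt, within the range of the 67 members with a peak (825 to 121712 nt, median 7588 nt). Absence of a peak does not separate a transcript without m6A from one with few reads, since depth is unknown. At Mrps24, 1 identifier (ENSMUSG00000020477.10) had peaks both in the gene and in its neighbour. Inside Mrps24 its control peak lay at the 5′ end, with a fold of 5.46 at a log10 FDR of -26.4. Its Dox peak lay near the 3′ end, with a fold of 2.03 at a log10 FDR of -45.1, and neither overlapped a peak of the other list. At Mrps34 the peaks on the plus strand had folds of 7.11 in control and 5.06 in Dox, and an identifier on the minus strand had peaks over the same place with folds of 7.08 and 5.06. These values cannot be told apart by strand.

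The 10 bases on each side of a GGAC are shown for 4 members in which a GGAC of a RefSeq start window lay under a control peak. Mrpl34 and Mrpl53 also had such a GGAC, under peaks of both lists, and are not printed. Control peaks touched the windows of 19 members, among them Mrps26, Mrps22, Mrps5 and Mrpl17, which are not printed either. The letters are from the RefSeq promoter windows of GRCm38.p6, in the sense of the gene, 5′ to 3′, with GGAC in capitals. At Mrps7 (chr11:115603979-115604002, plus strand) and Mrpl48 (chr7:100607698-100607721, minus strand) only a control peak covered the GGAC. At Mrpl12 (chr11:120484608-120484631, plus) and Mrpl57 (chr14:57826264-57826287, plus) peaks of both lists covered it. Relative to the annotated start of its window, the GGAC lay at -151 for Mrps7, -89 for Mrpl48 and -19 for Mrpl12, that is before the start, and at 36 for Mrpl57, after it. The Mrpl48 window is 1 of 4 for that gene and belongs to a start inside the gene interval; the window at the gene's outermost start, from 100608252 to 100608551, had 0 bases under a peak.
Mrps7: cgggcgcgccGGACcgcgtcggag
Mrpl48: tgccggcctcGGACgtgcgtgcgt
Mrpl12: agagcggcccGGACagctcgcctc
Mrpl57: atcggtcgggGGACgcggagcgcc
GGAC is a frequent string: it was present on the sense strand in 65.6% and on the antisense strand in 66.1% of all 32851 windows of 250 bases before to 50 after a start. Of the 75 windows of 69 members, 82.7% held it on the sense and 78.7% on the antisense strand. A match describes letters only and marks no methylated base. GGAC was chosen for display after the peaks were seen.

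Peaks on members were of low fold, at low false discovery rates. The 95 control peaks had a median fold of 3.35 (quartiles 2.14 and 5.31), against 4.62 for all control peaks, and the 112 Dox peaks a median of 2.66 (2.01 and 3.82), against 3.51. Low medians were not particular to members. They were 3.01 in control and 2.165 in Dox for cytoplasmic ribosomal protein genes, and 3.48 and 2.355 for oxidative phosphorylation genes. Only 11 control peaks (11.6%) and 1 Dox peak (0.893%) had a fold of 8 or more, against 26.8% and 9.4% of all peaks. In contrast, 57.9% of the control and 48.2% of the Dox peaks had a log10 FDR of -20 or less, against 34.6% and 27.8% of all peaks. At -5 or less were 76 of the 95 member control peaks. So were 80 of 91 control peaks of cytoplasmic ribosomal protein genes and 71 of 85 of oxidative phosphorylation genes. Members carried few peaks each: 54.4% of those with control peaks had a single one, against 36.7% of all genes with control peaks.

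The highest control folds were found on members of both subunits. Mrpl12 (ENSMUSG00000039640.7, chromosome 11 from 120484637 to 120488754, plus strand), the homolog of the bacterial stalk protein L7/L12, had a control peak of fold 17.4 over its start. The Dox peak there had the same bounds and a fold of 5.42. Its peak at the 3′ end had a fold of 5.77 in control and 4.86 in Dox, and at the peak between them the folds were 6.59 and 2.75. All 3 peaks of Mrpl12 thus had the higher fold in control, with the widest gap at the start.

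Mrpl48 came next with a fold of 16, on a peak described further on with the control-only genes. Mrps26, Mrps22 and Mrpl57, which have no bacterial counterpart, had highest control folds of 11.9, 11.3 and 10.9. Their highest Dox folds were 5.78, 7.59 and 4.18. Mrpl13 reached 10.3 in control and 4.97 in Dox just before its annotated start, a place shared with the divergent gene Mtbp, whose opposite-strand peaks had folds of 9.56 and 3.75. Mrps2 reached 10.1 in control, and 4.11 was its highest Dox fold. Mrpl45, which lies at the tunnel exit of the large subunit and anchors the ribosome to the inner membrane, had 9.29 and 4.58. Each of these members was higher in control, but they were chosen for their high control folds, which favours that order.

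Other members had their highest fold in the Dox list. Mrpl37 had a peak with the same bounds over its start in both lists, with a fold of 8.59 in control and 9.76 in Dox, the highest Dox fold of any member. Mrpl40 had 1.77 in control and 5.97 in Dox, where 1 wide peak spanned both control peaks. Mrpl46 had 5.24 and 5.48, and Mrps18b, 1 of 3 homologs of bacterial S18, had 4.79 and 5.18. Mrpl43, in contrast, had 8.74 in control and 5.44 in Dox.

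Over the 55 members with peaks in both lists, the highest fold was in the control list for 31 (against 74.3% of all genes with peaks in both) and in the Dox list for 24 (against 25.5%), which is 56.4% and 43.6% of members. Folds of separately called lists depend on depth and pull-down, which are unknown here. Where 1 control peak matched 1 Dox peak, 52 of 74 Dox peaks were wider, 11 equal and 11 narrower, that is 70.3% wider, against 58.2% over all genes.

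**Figure D2:**
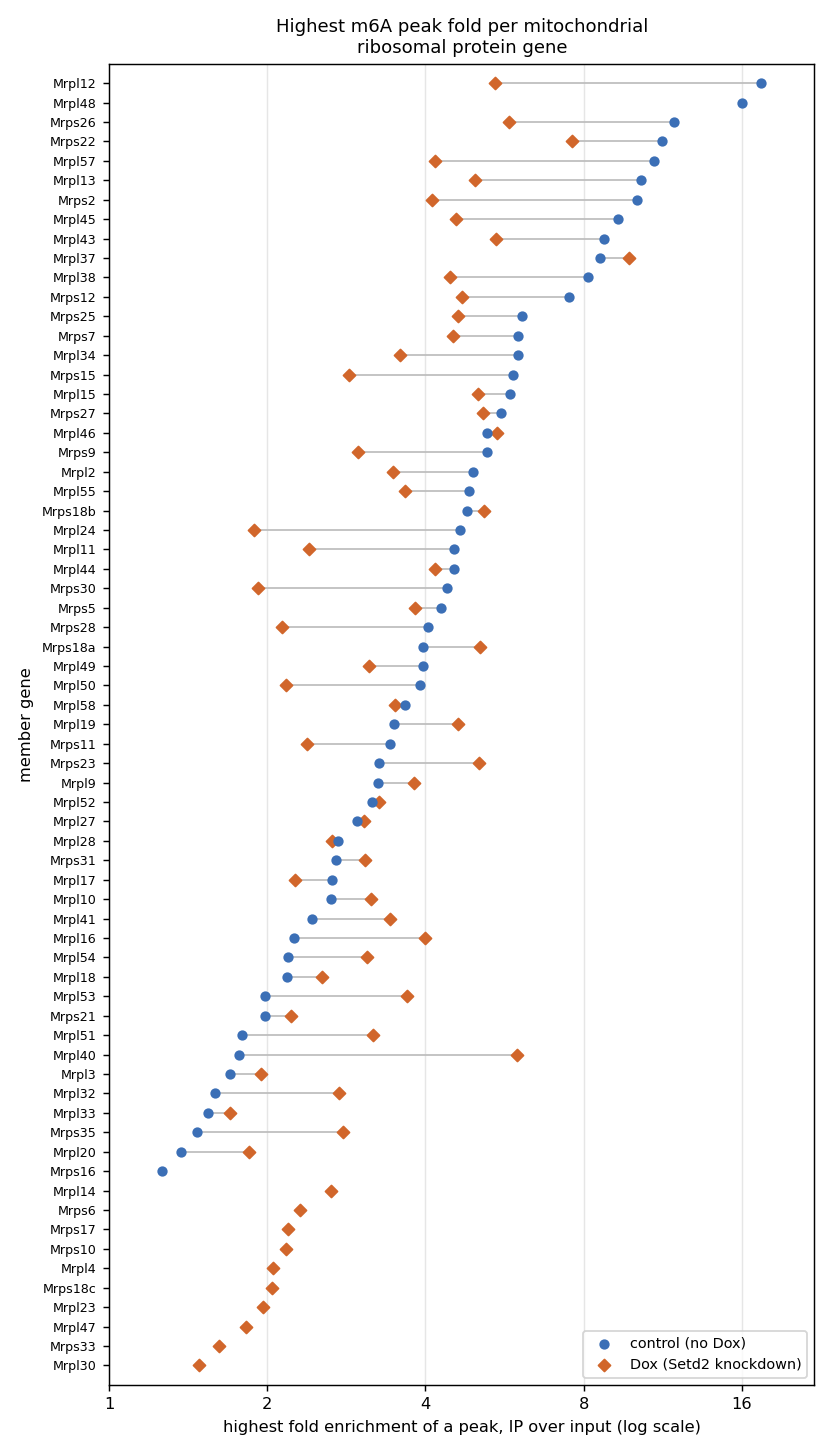
Highest fold enrichment (IP over input, log axis) of any peak assigned to each of the 67 members with peaks, circles for the control list and diamonds for the Dox list, each 1 pooled value without error. Mrpl12 stands at the top with 17.4 and 5.42, and the 10 members at the bottom have diamonds only, all at 2.65 or less.

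Mrpl49 and Mrps2 carried the most peaks, 4 in each list. On Mrpl49 (ENSMUSG00000007338.9, chromosome 19 from 6053630 to 6057755, minus strand) the folds ranged from 1.6 to 3.96 in control and from 1.9 to 3.13 in Dox. On Mrps2 (ENSMUSG00000035772.11, chromosome 2 from 28465951 to 28471177, plus strand) they ranged from 2.29 to 10.1 and from 1.75 to 4.11. Every peak of both genes overlapped a peak of the other list. Mrps5 carried 7 peaks, of which only a weak control peak just before its start, of fold 2.14 and log10 FDR -2.36, had no counterpart. Mrpl15 carried 6 peaks, with 1 unmatched in each list.

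Most control peaks on members overlapped a Dox peak, as did most control peaks of the whole list. Of the 95 control peaks, 11 had no overlapping Dox peak (11.6%, 5.92 to 19.8), against 19.3% of all control peaks. The interval includes the latter share. Of the 112 Dox peaks, 31 had no overlapping control peak (27.7%, 19.6 to 36.9), against 29.1% of all Dox peaks. Among peaks of log10 FDR -5 or less, 6 of 76 control peaks (7.89%, 2.95 to 16.4, against 7.56%) and 21 of 97 Dox peaks (21.6%, 13.9 to 31.2, against 11.6%) lacked a counterpart in the full table of the other condition. The excess over the background lay in Dox peaks of middle strength: between log10 FDR -5 and -20, 20 of 43 member peaks were unmatched (46.5%, 31.2 to 62.3), against 20.4% of peaks on all named genes. At -20 or less, 1 of 54 was (1.85%, against 2.63%).

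The order of the conditions turned with the fold limit. With only peaks of fold 4 or more in both lists, 44.7% of member control peaks and 22.2% of member Dox peaks were unmatched, against 45.7% and 31.6% of all peaks. Members are shorter than most genes, with a median interval of 7690.5 nt against 17169 nt. Among genes of 3000 to 20000 nt, a range chosen after the values were seen, 38 of 55 members had a control peak (69.1%, against 45.6%) and 47 a Dox peak (85.5%, against 47.1%). In that range 18 of 73 member Dox peaks of log10 FDR -5 or less were unmatched (24.7%, 15.3 to 36.1, against 10.9%), and 5 of 58 control peaks (8.62%, against 7.19%).

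Position along the gene was read for genes of at least 3000 nt from the midpoint of each peak, as the 5′ end (within 500 nt of the start), the 3′ end (within 1000 nt of the end) or between. A larger share of member peaks than of all peaks lay at either end. In control, 18 of 78 placed peaks were at the 5′ end (23.1%, 14.3 to 34, against 13.4%) and 27 at the 3′ end (34.6%, 24.2 to 46.2, against 14%). In Dox, 13 of 97 were at the 5′ end (13.4%, 7.33 to 21.8, against 7.98%) and 40 at the 3′ end (41.2%, 31.3 to 51.7, against 15.6%). Short genes have a larger part of their length inside these windows. Among all genes of 3000 to 20000 nt, 21.2% of control and 24.2% of Dox peaks were at the 3′ end, against 33.8% and 40.0% for members of that length. At the 5′ end the gap was smaller in that range, with 17.2% of control and 11.5% of Dox peaks over all genes against 22.1% and 12.9% for members. The 5′ end share was not particular to members. It was 38.0% in control and 33.3% in Dox for oxidative phosphorylation genes, and 23.8% and 12.9% for cytoplasmic ribosomal protein genes.

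**Figure D3:**
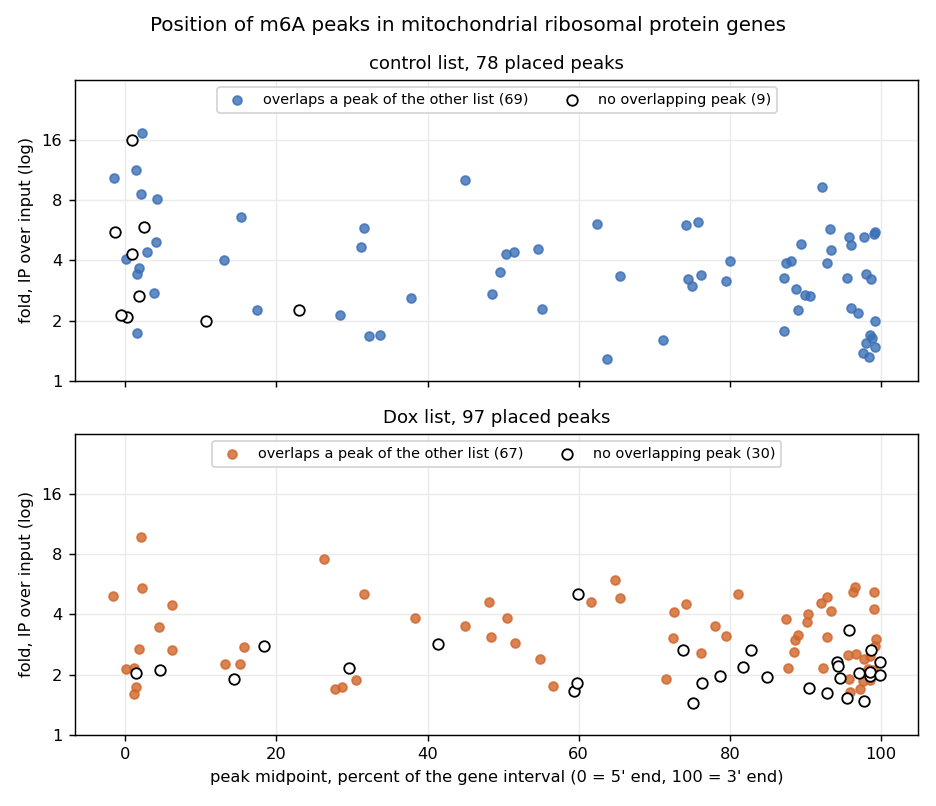
Midpoint of each placed member peak as a percentage of the gene interval (horizontal) against its fold enrichment (vertical, log axis), for 78 control and 97 Dox peaks; filled points overlap a peak of the other list and open points do not. Open points of the control list lie in the first part of the genes, and open points of the Dox list lie mostly toward the 3′ end and at low folds.

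The ends of the genes differed in which list held the unmatched peaks. At the 5′ end, 6 of 18 control peaks (33.3%, 13.3 to 59.0, against 38.8%) and 2 of 13 Dox peaks (15.4%, against 14.8%) had no counterpart. Between the ends, 3 of 33 control peaks (9.09%, against 16.1%) and 14 of 44 Dox peaks (31.8%, against 30.2%) were unmatched. At the 3′ end, 0 of 27 control peaks (0 to 12.8%, against 11.6%) and 14 of 40 Dox peaks (35.0%, 20.6 to 51.7, against 31.8%) had none. Each member share, with its interval, included the share over all genes. Counted by gene and by peak midpoint, 7 of 20 members with a 5′ end peak had it in control only (35.0%, against 42.3%) and 2 in Dox only (10%, against 10%). The 7 include Mrps22, whose 5′ end control peak of fold 11.3 did overlap a Dox peak, of fold 7.59. The midpoint of that Dox peak fell further in, so it was classed as between the ends. Of 36 members with a 3′ end peak, 24 had it in both lists, 12 in Dox only (33.3%, against 26.6%) and 0 in control only (against 11%).

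**Figure D4:**
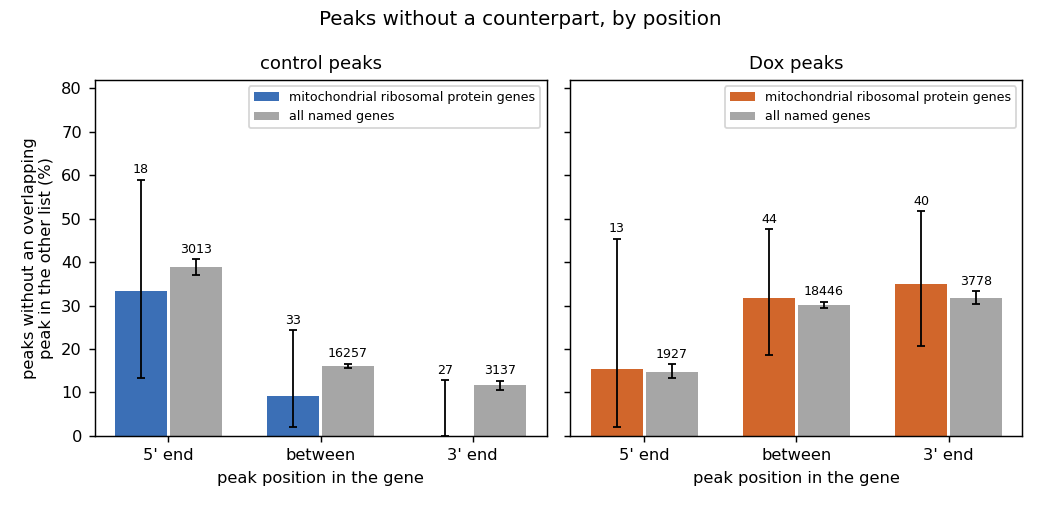
Percentage of unmatched peaks (no overlap with any peak of the opposite condition), by position in the gene, for members (coloured bars) and all named genes (grey bars), with exact 95% intervals for counting error and the number of peaks above each bar. In control the member share is 33.3% at the 5′ end and 0 at the 3′ end, and in Dox it is 15.4% and 35.0%.

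Control peaks of log10 FDR -5 or less without a Dox peak were on 5 members. At the 5′ end lay 4 of the 6 (66.7%, against 37.8% of such placed peaks over all genes), too few to compare the shares. Of all placed control peaks, matched or not, 23.1% were at the 5′ end on members, against 13.4% over all genes. Mrps7 (ENSMUSG00000046756.10, chromosome 11 from 115604140 to 115608036, plus strand), the homolog of bacterial S7 in the head of the small subunit, had 2 of the 6 unmatched peaks. The first, from 115603955 to 115604221 over its start, had a fold of 5.54 at a log10 FDR of -26.2 and covered the GGAC printed above for Mrps7. The second lay further in, with a fold of 2.26 at a log10 FDR of -9.02. The other control peak of Mrps7 had a Dox counterpart, with folds of 6.01 and 4.51, so the gene had peaks in both lists. The divergent gene Gga3 also had a control peak over the start of Mrps7, with a fold of 4.31 at a log10 FDR of -1.7.

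Mrps15, the homolog of bacterial S15, had its single control peak at the 5′ end, with a fold of 5.87 at a log10 FDR of -23.7, and 2 Dox peaks further along with folds of 2.86 and 1.82. No peak of Mrps15 overlapped between the lists. Mrpl17 had an unmatched 5′ end peak of fold 2.66 and log10 FDR -15.4, and Mrpl15 one of fold 4.31 and log10 FDR -11.3. Both genes also had matched peaks within 2000 nt of the start: Mrpl17 at folds of 2.27 and 2.26, Mrpl15 at 4.01 and 2.25.

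Mrpl48 (ENSMUSG00000030706.17, chromosome 7 from 100545779 to 100608301, minus strand) was 1 of 2 members with peaks in control only. Its stronger peak, from 100607582 to 100607971, had a fold of 16 at a log10 FDR of only -5.17, and the other a fold of 2.08 at -2.54. Rab6a, a gene on the opposite strand whose start overlaps that of Mrpl48, had control peaks over both, with folds of 16 and 1.99. A fold of 16 was given to 239 control peaks, with a median log10 FDR of -3.43. The other control-only member was Mrps16, with a peak of fold 1.26 and log10 FDR -2.32 near its 3′ end. The control-only class thus held 1 gene whose peaks coincide with those of a neighbour and 1 gene with a weak peak.

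Dox-only members had peaks of low fold. The 10 genes were Mrpl4, Mrpl14, Mrpl23, Mrpl30, Mrpl47, Mrps6, Mrps10, Mrps17, Mrps18c and Mrps33. Their 12 peaks had folds of 1.45 to 2.65 and log10 FDRs of -1.84 to -19.3, and 8 of the 10 genes had one at -5 or less. By peak, 9 of the 12 were at -5 or less, as were 86.6% of all member Dox peaks and 56.9% of all Dox peaks. The authors' shorter list, which keeps peaks of p up to 1e-05 and fold of at least 2, held 5 of the 10 genes. It held 15500 of all 27612 Dox peaks. The same shares over all Dox-only genes were not calculated.

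Among the large subunit genes of this class, Mrpl4 and Mrpl23, homologs of bacterial L4 and L23 that line and surround the exit tunnel, had Dox peaks at the 3′ end. That of Mrpl4 (ENSMUSG00000003299.9, chromosome 9 from 21008626 to 21008835) had a fold of 2.05 and the lowest log10 FDR of the class, -19.3. That of Mrpl23 had a fold of 1.96 at a log10 FDR of -8.39. Mrpl14, the homolog of L14 at the interface of the subunits, had a peak of fold 2.65 and log10 FDR -11.2. Mrpl30 had 1.48 and -5.75, and Mrpl47 had 1.82 and -1.84, the weakest call.

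Small subunit genes with Dox peaks only included Mrps17, the homolog of bacterial S17 (ENSMUSG00000034211.14, chromosome 5 from 129715450 to 129718712, plus strand), with a fold of 2.19 at a log10 FDR of -17.2. Mrps6, the homolog of S6, had 2.31 and -6.14, and Mrps33 had 1.62 and -5.76. Mrps10, the homolog of bacterial S10, had 2 peaks away from its ends, with folds of 2.17 and 1.45 and log10 FDRs of -10.8 and -5.06. Mrps18c had 2 weak peaks of folds 2.04 and 1.9. A second identifier over Mrps18c also had a Dox peak only, with a fold of 2.6 at a log10 FDR of -9.58.

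The 12 members with a 3′ end peak in the Dox list and none in control were Mrpl4, Mrpl14, Mrpl23, Mrpl24, Mrpl30, Mrpl45, Mrps6, Mrps17, Mrps21, Mrps28, Mrps30 and Mrps33. Their peaks had folds of 1.48 to 3.34 with a median of 2.02, and midpoints 88 to 654 nt from the annotated end. For 11 of the 12 the log10 FDR was -5 or less, the exception being Mrpl45 at -3.98 and a fold of 3.34. That limit was met by 86.6% of all member Dox peaks and 56.9% of all Dox peaks. Of the 12 genes, 7 had no control peak at all, while Mrpl24, Mrpl45, Mrps21, Mrps28 and Mrps30 had control peaks elsewhere.

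Mrps30 (ENSMUSG00000021731.9, chromosome 13 from 118380110 to 118387252, minus strand) encodes a protein of the large subunit despite its symbol. It had a start peak in both lists and a 3′ end peak in Dox only. At its start the fold was 4.4 at log10 FDR -25.7 in control and 1.74 at -2.04 in Dox, and an opposite-strand identifier had peaks there with folds of 4.45 and 1.75. At its 3′ end only a Dox peak was found, with a fold of 1.92 at a log10 FDR of -16.6. Mrps28 had a like pair of values: its start peak had folds of 4.05 in control and 2.13 in Dox, and its 3′ end peak of fold 1.99 was in the Dox list only. A second identifier inside Mrps28, on the same strand and not kept for the gene, had matched peaks of fold 9.57 in control and 5.42 in Dox. Mrpl24 had an inner peak of 4.66 in control and 1.89 in Dox, and a Dox-only 3′ end peak of fold 1.52. That last peak was overlapped on the opposite strand by one of Rrnad1, with a fold of 1.73. Mrps21 had a Dox-only 3′ end peak of fold 2.22 and log10 FDR -11.1. Its control peak, of fold 1.98, began at 95863303, just beyond the end of that Dox peak at 95863244.

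Dox peaks of log10 FDR -5 or less without a control peak were on 20 members in all, and 12 of the 20 peaks that could be placed were at the 3′ end (60.0%, against 22% of such peaks over all genes). Within genes of 3000 to 20000 nt, 10 of 18 such member peaks were at the 3′ end (55.6%), against 33.8% for all genes of that length. For Dox peaks of that range in general, matched or not, the shares were 40.0% on members and 24.2% over all genes. A larger 3′ end share on members was therefore not particular to unmatched peaks. The 18 peaks are few, and the difference was not tested. Away from the 3′ end, Mrpl15 had the strongest call, with a fold of 2.64 at a log10 FDR of -58.8. Mrpl2, the homolog of L2 near the peptidyl transferase centre, had 1.65 and -18.1. Mrps23 had 5.06 and -5.13, and Mrps31 had 1.72 and -5.07. Mrpl51, too short to be placed, had 1.44 and -8.44. Mrps11 had an unmatched Dox peak at its start, of fold 2.11 and log10 FDR -8.83, and Mrpl40 one at the 3′ end, of fold 2.3 and log10 FDR -15.5.

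Mrpl46 and Mrps11 are neighbours on chromosome 7, transcribed away from each other with 41 nt between their starts. Both had matched peaks at the 3′ end, Mrpl46 with folds of 5.24 in control and 5.48 in Dox, and Mrps11 with 3.43 and 2.38. Mrps11 also had the unmatched Dox start peak given above, whose log10 FDR of -8.83 was close to the -8.58 of its Dox peak at the 3′ end.

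Neighbouring and overlapping genes limit how peaks can be given to 13 of the members. Peaks of 10 members overlapped peaks of another identifier on the opposite strand, and those of 3 overlapped another on the same strand. Over all pairs of opposite-strand peaks overlapping by at least 80%, folds agreed within 10% in 245 of 344 control pairs (71.2%) and 236 of 308 Dox pairs (76.6%). At the 3′ end of Mrps18b, for example, the folds were 4.79 in control and 5.18 in Dox, and 4.74 and 5.18 on the other strand. Peaks of Mrpl53 coincide with those of Ccdc142 on the same strand. Without these 13 genes, 44 members had peaks in both lists, 1 in control only and 9 in Dox only, and 3′ end peaks were found in Dox only on 10 members and in control only on 0.

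Most other genes of mitochondrial translation had peaks too. Of 50 genes on the list, 48 had a peak, 40 in both lists, 1 in control only and 7 in Dox only. All 5 ribosomal proteins with other symbols had one. Dap3, a GTP-binding protein of the small subunit, had a highest fold of 8.61 in control and 18.4 in Dox, and Gadd45gip1 had 8.53 and 6.21. Chchd1 had 2.24 and 2.56, and Aurkaip1 had 2.12 and 2.37.

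All 10 translation factors had peaks, 7 of them in both lists. Tsfm, the elongation factor that recharges mitochondrial EF-Tu, had 13.5 in control and 3.92 in Dox. Mtif3, an initiation factor, had 9.79 and 6.51, and Mtfmt, which formylates the initiator methionyl-tRNA, had 7.56 and 2.71. The release factor gene Mtrf1l had a control peak only, with a fold of 8.61 at a log10 FDR of -5.68.

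All 17 mitochondrial aminoacyl-tRNA synthetases had peaks, 15 in both lists and 2 in Dox only. Aars2 had the highest control fold of these, 15.6, with 6.65 in Dox, and Pars2 had 12.1 and 8.1. Ears2 had 5.51 and 11.4, and Sars2 had 7.09 and 4.08. Of 18 assembly and rRNA modification genes, 16 had peaks, 14 in both lists. The GTPase gene Noa1 had 16.8 and 6.02, and the helicase genes Ddx28 and Dhx30 had 13.5 and 5.95, and 9.23 and 5.05. Mrm3, an rRNA methyltransferase gene, had 5.73 and 9.43.

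Genes of the cytosolic ribosome and of the respiratory chain served for comparison. Peaks were on 64 of 84 cytoplasmic ribosomal protein genes (76.2%, 65.7 to 84.8) and on 71 of 96 oxidative phosphorylation genes (74.0%, 64.0 to 82.4), against 85.9% of members (76.2 to 92.7). The intervals overlapped. Cytoplasmic ribosomal protein genes have many close copies, so their values are uncertain. Of their control peaks 26.4% (17.7 to 36.7) were without a Dox peak, against 11.6% (5.92 to 19.8) for members. The share was 16.5% (9.31 to 26.1) for oxidative phosphorylation genes and 14.9% (8.2 to 24.2) for the other genes of mitochondrial translation. All of these intervals overlapped, which does not show that the shares were alike, and the differences were not tested. At the 3′ end lay 34.6% of the placed control peaks of members (24.2 to 46.2), against 11.3% (4.99 to 21) for oxidative phosphorylation genes and 22.2% (12.7 to 34.5) for cytoplasmic ribosomal protein genes. Here the interval of members overlapped that of cytoplasmic ribosomal protein genes but not that of oxidative phosphorylation genes. As for members, no 3′ end control peak was unmatched there: 0 of 8 for oxidative phosphorylation genes and 0 of 14 for cytoplasmic ribosomal protein genes. Of 3′ end Dox peaks, 47.1% and 22.2% were unmatched in these groups, against 35.0% for members.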

How the data were processed

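The 8 libraries were IP and input RNA of control and Dox cells. Per the submitters' processing notes, FastQC 0.11.5 and TopHat2 2.1.1 were used with build mm10. The tables are titled as exomePeak output, with version, settings and use of strand not stated in any label or header. The authors deposited 1 table and 1 shorter list per condition, with replicates pooled, and depth is unknown. The deposited p-value of each peak, the log10 of its p and FDR, and the fold (a ratio of IP over input) are the authors', per the file headers. The shorter lists hold exactly the peaks of p up to 1e-05 and fold of at least 2.

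An Ensembl identifier was given the RefSeq gene (GRCm38.p6) that held at least 50% of its peak midpoints on the same strand, where the reference gives the strand. This named 10720 of 13110 identifiers (81.8%), covering 89.9% of the control peaks and 90.3% of the Dox peaks. Where a gene had several identifiers, the one with most peaks was kept. Peaks were shared when at least 1 exonic nucleotide overlapped on the same strand. On simulated data, overlap calls had 0 errors in 300, and 295 of 300 identifiers were named, all 295 rightly. The simulated peaks of an identifier all lay inside 1 gene, with 1 identifier per gene. The simulation therefore did not test peaks shared with neighbours or genes with several identifiers. Coordinates are 1-based mm10 positions.

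The members and lists were chosen with earlier results of these data known. Genes named are members with peaks in 1 list, the 8 highest folds per list, the 5 members with most peaks, members with unmatched peaks of log10 FDR -5 or less, and up to 4 genes per other list by highest fold. Mrpl34, Mrpl53, Mrps24, Mrps34 and neighbouring genes were named after their values were seen. Alternatives changed the peaks used, the naming rule, the overlap and the windows. Python 3.11.15 with pandas 2.3.3, scipy 1.17.1 and matplotlib 3.10.9 was used.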

Additional observations from a re-analysis of the deposited data

How the results depend on the processing

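Over 14 results and 84 alternative values, 66 stayed near the value given and 18 moved, and most of those that moved did so at a fold limit of 4. With peaks of fold 4 or more, 29 members had a control peak and 23 a Dox peak (11 with control peaks alone and 5 with Dox peaks alone), and 44.7% of control peaks were unmatched. Of 5′ end peaks, 11 control and 4 Dox peaks were left at that limit, and 3′ end peaks were found on 7 members in control and 7 in Dox, with 1 found in each list alone. The limit removes weak peaks by construction. In the authors' shorter lists 4 members were in control only, and median folds were 4.3 in control and 3.14 in Dox. Taking the highest fold of each member, the medians were 4.05 and 3.18. Naming by location without strand left 1 member in control only, as did leaving out the members overlapped by another identifier (1). All alternatives of the 3′ end counts and the set without overlapped members were added after seeing the data. Against 12 members with a 3′ end peak in Dox only, there were 10 with a window of 500 nt, 15 with 2000 nt, 9 in the shorter lists, 16 among peaks with log10 FDRs up to -5, and 10 without overlapped members.

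No paired analysis was possible because the deposited values pool both replicates, and for the same reason leaving out a replicate was not run. Sequencing depth is unknown.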
